A study of Homo sapiens with 11 samples.

Results

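Genes that damp ERK signalling or report its output were followed across all 11 libraries of a study of nemo-like kinase (NLK) in breast cancer cells. The set comprised the phosphatase genes DUSP4, DUSP5 and DUSP6, the Sprouty genes SPRY1, SPRY2 and SPRY4, the Spred genes SPRED1 and SPRED2, and the transcription factor genes ETV4 and ETV5. They were taken by symbol from the deposited count tables, 10 genes of 59087. No measured value entered that rule, but the genes were chosen with earlier results of these data known.

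The study examined what lowering NLK does in human breast cancer cells of a pair of estrogen receptor positive lines. BT483 comes from a ductal carcinoma. T47D-TamR descends from T47D cells and was kept in tamoxifen, a drug that competes with estrogen for its receptor, until it grew in its presence. Polyadenylated RNA was sequenced, with 1 library for each group. In each line the groups were NLK siRNA type 1, NLK siRNA type 2, control siRNA with 0.5 µM tamoxifen, and control siRNA alone, with every siRNA at 10 nM for 72 h. T47D-TamR cells alone were also given 0.5 µM VX-702, 0.5 µM tamoxifen added to DMSO, or DMSO, the solvent. VX-702 was developed against the p38 MAP kinases, which are relatives of NLK. Cells of every group had first been held without estrogen for 48 h, so the control libraries too are estrogen-deprived. How long the VX-702 and DMSO arm was treated is not clear from the labels. Each line is a single cultured line, and the resistant one was compared with another line and not with its own parent.

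When a growth factor receptor activates RAS, the kinases RAF, MEK and ERK are switched on in turn, and ERK then drives transcription of its own brakes. DUSP proteins remove the activating phosphates from MAP kinases, while Sprouty and Spred proteins act further up, between receptor, RAS and RAF. ETV4 and ETV5 are ETS-family activators that ERK signalling induces, and in breast epithelium the pathway is driven by receptors of the EGF and FGF families. Transcripts of these genes are often read as a gauge of ERK output, but ERK phosphorylation was not measured in the data used here.

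Library totals ran from 14637083 to 26915863 counts. All 110 values of the 10 genes lay above 3 counts, from 14 to 1869, and 3 counts correspond to 0.111 to 0.205 CPM, counts scaled to a common library total. All other CPM values carry TMM scaling. The 8 luminal epithelial markers, among them ESR1, GATA3 and KRT18, were above 3 counts in every library, and 8 leukocyte markers summed to between 0.28 and 1.03 CPM. Because each group held 1 library, the tests took their spread from fits over many libraries and assume that a lone library varies as the others do. Nothing in the labels says that libraries came from separate cultures, and the p-values reflect only how these samples scatter, which may be technical. In the fits of knockdown and tamoxifen in each line, that scatter is the difference between NLK siRNA types 1 and 2 in each line and between the tamoxifen effects of both T47D-TamR arms (3 residual degrees of freedom), so reagents and arms stand in for replicates. Those fits give both T47D-TamR arms a common tamoxifen effect. The T47D-TamR knockdown coefficients therefore also draw on the tamoxifen and DMSO libraries and are not plain ratios to control siRNA. In bulk RNA, fewer cells that express a gene and less of its RNA per cell cannot be told apart.

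NLK, the targeted gene, was low in every library labelled as knockdown. The designed siRNA target sequences are shown because they address different parts of the NLK transcript, and their matching to types 1 and 2 rests on the numbering alone. No bases are singled out by capitals.
siRNA 1: gucaguaacagauccaaga
siRNA 2: gagcugaauuugaagacua
The first matches the coding part of exon 2 of 11 (chr17:28122603-28122621, plus strand, GRCh38) and the second the 3′ untranslated part of exon 11 (chr17:28196045-28196063). In BT483, NLK had 8.52 CPM with type 1 and 5.41 CPM with type 2, against 30.0 CPM with control siRNA. In T47D-TamR it had 10.3 CPM with type 1 and 12.2 CPM with type 2, against 29.3 CPM with control siRNA. The other libraries lay between 28.1 and 34.5 CPM, so the 4 knockdown libraries did not overlap with them. NLK passed edgeR's test in BT483 (log2 fold change -2.13, adjusted p = 0.0198) and over both lines (-1.75, adjusted p = 0.0308), but not in T47D-TamR (-1.38, adjusted p = 0.333).

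The call of NLK itself depended on the setting, although its direction did not. Over both lines it was lost in 10 of 18 settings (adjusted p from 2.63e-18 to 0.835) and in BT483 in 9 of 16 (8.06e-13 to 0.575). The minimum of 10 counts, the 8 siRNA libraries alone, the length and GC offset and limma ended both calls. So did leaving out the T47D-TamR control siRNA library (adjusted p = 0.373 over both lines and 0.442 in BT483, edgeR), DMSO (0.130 and 0.379) or DMSO with tamoxifen (0.137 and 0.490). The call over both lines was also lost without BT483 control siRNA (0.116), BT483 type 1 (0.120) or T47D-TamR type 1 (0.138), and that in BT483 without BT483 type 2 (0.178) or the T47D-TamR tamoxifen library with control siRNA (0.353). In T47D-TamR NLK passed with no filter (5.97e-06) and in DESeq2 (0.0121), within a range of 5.97e-06 to 1.

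The lines differed in which brakes they held in abundance. Expressed per transcript length, as TPM, a transcript's share of all transcripts corrected for length, SPRED2 led in BT483 with a median of 36.5 TPM over 4 libraries (31.1 to 37.3), followed by DUSP5 at 24.5 (12.3 to 34.8), SPRY4 at 19.2 (9.92 to 19.9) and DUSP4 at 12.3 (11.1 to 13.7). The lower ranks in BT483 were DUSP6 at a median of 8.66 TPM (7.57 to 9.44), ETV4 at 7.28 (3.74 to 14.5), SPRY1 at 5.77 (4.43 to 7.12), SPRED1 at 2.58 (2.30 to 2.89), SPRY2 at 2.15 (1.85 to 2.37) and ETV5 at 1.40 (0.789 to 2.01). Of the neighbours in that order, only DUSP4 with DUSP6 and SPRY1 with SPRED1 had ranges that did not overlap.

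In T47D-TamR, DUSP5 led with a median of 35.7 TPM over 7 libraries (31.0 to 50.8), ahead of SPRED2 at 20.4 (16.6 to 29.3), SPRY1 at 6.65 (5.26 to 7.48), DUSP4 at 5.04 (3.56 to 12.1) and SPRED1 at 4.23 (3.76 to 5.01). Below them stood ETV4 at a median of 2.48 TPM (1.89 to 4.96), SPRY2 at 1.26 (0.758 to 1.89), DUSP6 at 1.10 (0.684 to 3.05), SPRY4 at 0.793 (0.463 to 3.53) and ETV5 at 0.368 (0.246 to 0.729). Neighbours without overlap were DUSP5 with SPRED2, SPRED2 with SPRY1, and ETV4 with SPRY2. SPRY4, near the head of the order in BT483, was thus near its foot here. The widest ranges within T47D-TamR were those of SPRY4, whose highest library was 7.61 times its lowest, DUSP6 at 4.46 times and DUSP4 at 3.39 times.

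**Figure D1:**
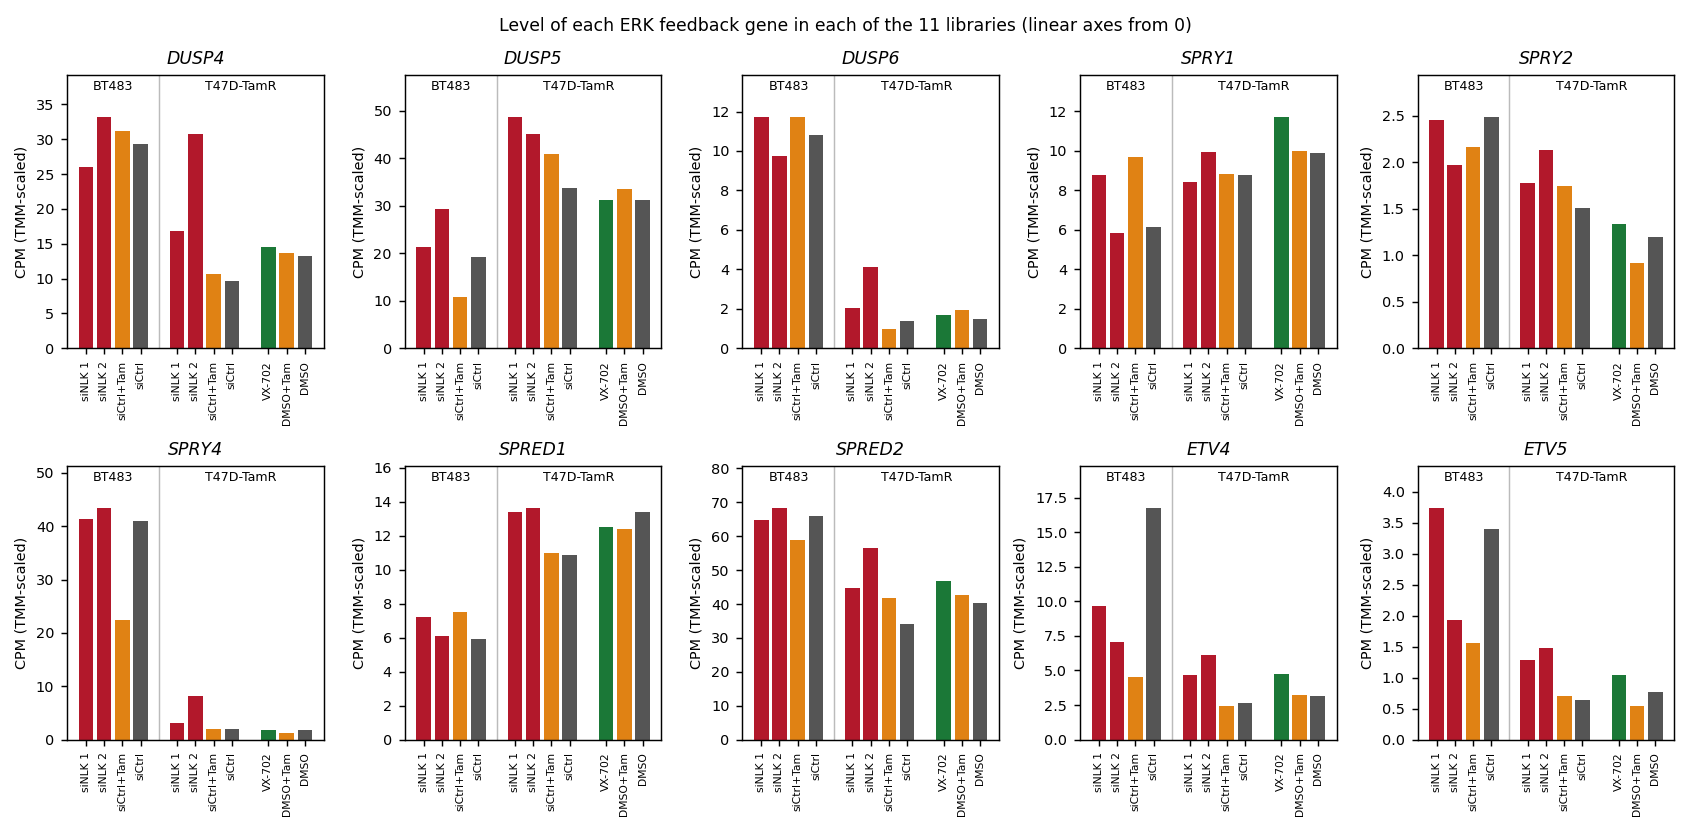
Level of each of the 10 genes in each library, in TMM-scaled CPM on linear axes that start at 0, with 1 bar per library (red NLK siRNA, orange tamoxifen, green VX-702, grey control siRNA or DMSO). SPRY4 reaches 43.5 CPM in BT483 and 8.12 CPM in T47D-TamR with NLK siRNA type 2, where it stands above the other T47D-TamR libraries, and ETV4 is lower in every treated BT483 library than in the control siRNA library at 16.8 CPM.

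Tested over the 8 siRNA libraries, with treatment as a block, the line effect on these genes was large, as it was genome-wide. By edgeR's quasi-likelihood test, 8 of the 10 genes passed an adjusted p of 0.05 between BT483 and T47D-TamR, against 70.7% of the 21990 genes tested, a share near that of the set. SPRY4, a Sprouty that restrains RAS activation, had 22.4 to 43.5 CPM in BT483 siRNA libraries and 1.90 to 8.12 CPM in those of T47D-TamR, and the groups did not overlap. Its log2 fold change was 3.48 (SE 0.29, adjusted p = 7.47e-06, edgeR). DUSP6, the cytoplasmic ERK phosphatase, had 9.73 to 11.7 CPM in BT483 and 0.969 to 4.12 CPM in T47D-TamR, again without overlap, with a log2 fold change of 2.51 (SE 0.34, adjusted p = 0.000126, edgeR).

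The phosphatase DUSP4, SPRED2 and the ETS factors were also higher in BT483, with log2 fold changes of 0.96 (SE 0.24) for DUSP4, 0.56 (SE 0.12) for SPRED2, 1.18 (SE 0.35) for ETV4 and 1.35 (SE 0.33) for ETV5. The nuclear ERK phosphatase DUSP5 and SPRED1 ran the other way, with log2 fold changes of -1.13 (SE 0.20) and -0.87 (SE 0.17). In edgeR's test the adjusted p was 0.00583 for DUSP4, 0.00163 for SPRED2, 0.0146 for ETV4, 0.00329 for ETV5, 0.000412 for DUSP5 and 0.000705 for SPRED1. SPRY1 (-0.27, SE 0.20) and SPRY2 (0.34, SE 0.25) did not pass. Of all 10, SPRY4, DUSP6, SPRED2 and ETV5 were higher in every BT483 library than in any of T47D-TamR (4 genes, background 32.7%), and DUSP5 and SPRED1 were lower in every one (2 genes, background 34.7%). The call of ETV4 was lost in limma (adjusted p = 0.0538) and without any 1 of 4 libraries, BT483 type 1 (0.0683), BT483 tamoxifen (0.0726), T47D-TamR type 1 (0.0705) or T47D-TamR tamoxifen with control siRNA (0.0908), over a range of 1.16e-07 to 0.0908 in all settings.

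NLK knockdown in T47D-TamR went with higher values of most of the set, without any gene passing the adjusted threshold. In edgeR's fit per line all 10 coefficients were positive, with a median log2 fold change of 0.73, against 0.04 over all genes tested. None of the 10 had an adjusted p under 0.05, where 0.00416% of the 24023 genes did (1 gene, the pseudogene H2AFZP3). At an unadjusted p under 0.05 there were 5 of 10, all higher (DUSP4, DUSP6, SPRY4, SPRED2 and ETV4), against 2.66% of all genes.

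Among the phosphatases, DUSP4, which acts on ERK and other MAP kinases in the nucleus, had 16.8 CPM with type 1 and 30.8 CPM with type 2, against 9.68 CPM with control siRNA. The 4 further T47D-TamR libraries lay between 10.7 and 14.5 CPM, below both knockdown libraries. The log2 fold change was 1.27 (SE 0.30, unadjusted p = 0.00125, adjusted p = 0.735, edgeR). DUSP6 had 2.05 CPM with type 1 and 4.12 CPM with type 2, against 1.39 CPM with control siRNA and 0.969 to 1.96 CPM in the other 4 T47D-TamR libraries. Its knockdown libraries were also the highest pair, but the lower one stood just above the tamoxifen library of the DMSO arm. The log2 fold change of DUSP6 was 1.37 (SE 0.42, unadjusted p = 0.00562, adjusted p = 0.806, edgeR). By library, its log2 difference from control siRNA was 0.54 with type 1 and 1.52 with type 2. The coefficient also draws on the tamoxifen and DMSO libraries, where the tamoxifen ratio of DUSP6 differed in direction between arms. DUSP5 had 48.8 CPM with type 1 and 45.2 CPM with type 2, against 33.8 CPM with control siRNA, and here type 1 was the higher. Its log2 fold change was 0.43 (SE 0.21, adjusted p = 0.859, edgeR).

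Of the Sproutys, SPRY4 showed the widest step. It had 3.14 CPM with type 1 and 8.12 CPM with type 2, against 1.94 CPM with control siRNA and 1.15 to 1.90 CPM in the other 4 libraries. The ratio to control was 4.18 with type 2 (95% interval 3.04 to 5.85) and 1.62 with type 1 (1.12 to 2.36). These intervals, exact binomial like all intervals of ratios given here, cover counting error only. The log2 fold change over both siRNAs was 1.37 (SE 0.50, unadjusted p = 0.0246, adjusted p = 0.857, edgeR). SPRY2, an inhibitor of the same step, had 1.77 and 2.13 CPM with types 1 and 2, against 1.51 CPM with control siRNA, and both intervals of its ratios included 1. SPRY1 had 8.41 and 9.94 CPM with types 1 and 2, against 8.76 CPM with control siRNA, so the knockdown libraries lay on either side of the control.

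SPRED2, which holds back RAF activation at the membrane, had 44.7 CPM with type 1 and 56.6 CPM with type 2, against 34.1 CPM with control siRNA. The VX-702 library, at 46.7 CPM, stood above type 1, so the knockdown libraries overlapped with the rest. Its log2 fold change was 0.51 (SE 0.19, unadjusted p = 0.0170, adjusted p = 0.857, edgeR). SPRED1 had 13.4 and 13.6 CPM with types 1 and 2, against 10.9 CPM with control siRNA, but also 13.4 CPM with DMSO.

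ETV4 had 4.67 CPM with type 1 and 6.12 CPM with type 2, against 2.62 CPM with control siRNA. VX-702 gave 4.77 CPM, above type 1, and the other 3 libraries lay between 2.44 and 3.22 CPM. The log2 fold change of ETV4 was 1.08 (SE 0.32, unadjusted p = 0.00465, adjusted p = 0.777, edgeR). ETV5, its close relative, had 1.29 CPM with type 1 and 1.48 CPM with type 2, against 0.635 CPM with control siRNA and 0.537 to 1.05 CPM in the other 4 libraries. The knockdown libraries of ETV5 were the highest pair, yet the counts are small and the ratio intervals wide, 1.08 to 3.96 with type 1 and 1.25 to 4.51 with type 2.

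Leaving out a library moved several of these coefficients. Without the T47D-TamR type 2 library the log2 fold change was 0.77 for DUSP4 and 0.53 for SPRY4, and without the type 1 library it was 1.65 for DUSP4 (adjusted p = 0.0402, edgeR) and 1.90 for SPRY4 (adjusted p = 0.0495, edgeR). Both also passed with no filter on low counts, and the adjusted p over all settings ran from 0.000557 to 1 for DUSP4 and from 0.00754 to 1 for SPRY4. DUSP6 had 0.79 without type 2, 1.79 without type 1 and 2.00 without control siRNA, with no call in any setting. SPRY4 without the control siRNA library had 0.79, and SPRED2 had 0.30 without control siRNA and 0.33 without type 2. Without control siRNA, the baseline is the tamoxifen library of that arm, adjusted by the tamoxifen effect of the DMSO arm. Values from that setting are thus not comparisons with an untreated control siRNA library. For DUSP6 the tamoxifen ratio was 0.698 with control siRNA and 1.32 with DMSO.

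By library, 4 of the 10 genes (DUSP4, SPRY4, ETV4 and ETV5) were at least 1.5-fold higher with both siRNAs than with control siRNA, against a background of 2.09% of genes averaging at least 0.5 CPM. Both siRNA ratios share 1 control library, so they are not independent. Higher with both by any amount were 9 of 10 (background 37.4%), and 6 of 10 (DUSP4, DUSP5, DUSP6, SPRY2, SPRY4 and ETV5) had both knockdown libraries above the other 5 (background 8.23%). For DUSP6 and SPRY2 only library scaling made that order. DUSP6 had 51 counts both with type 1 and with tamoxifen in the DMSO arm. SPRY2 had 44 counts with type 1 and 45 with tamoxifen and control siRNA. The control siRNA library was itself low for part of the set. Against DMSO it stood at 0.732 (0.618 to 0.867) for DUSP4, 0.810 (0.688 to 0.953) for SPRED1 and 0.850 (0.775 to 0.932) for SPRED2, and 3 of the 10 genes were higher in it than in DMSO, against 51.2% of genes. None of the 10 differed by 1.5-fold between control siRNA and DMSO, against 11.5% of genes.

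A mesenchymal marker sum also differed between the T47D-TamR libraries. The 12 fibroblast and mesenchymal markers summed to 141 CPM with type 1, 138 CPM with type 2 and 135 CPM with VX-702 in T47D-TamR. They summed to 112 CPM with tamoxifen and control siRNA and 92.1 CPM with tamoxifen in the DMSO arm, against 96.8 CPM with control siRNA and 95.0 CPM with DMSO. In BT483 the sums lay between 12.8 and 15.5 CPM. Without ACTA2, which is also a gene of smooth muscle, the sums were 81.2 CPM with type 1, 78.3 CPM with type 2 and 69.1 CPM with VX-702, and 63.7 and 65.5 CPM in the tamoxifen libraries, against 54.2 CPM with control siRNA and 61.9 CPM with DMSO. Of the 12 markers, 6 were at 0 with VX-702, 2 with control siRNA and tamoxifen, 1 with tamoxifen in the DMSO arm, 2 with DMSO, and 0 in the other 3 T47D-TamR libraries. Such sums weigh abundant markers most. In edgeR's tamoxifen fit in T47D-TamR, 9 of 10 markers tested were negative and 1 positive, where 53.8% of genes were positive. The median log2 fold change was -1.67, and 4 had an unadjusted p under 0.05, all lower, against 6.01% of genes either way. On knockdown all 10 were positive, with a median of 0.80, where 53.7% of genes were positive. Of the markers tested, only ACTA2 and COL1A1 had an average log2 CPM of at least 1. In either T47D-TamR tamoxifen library 5 of the 12 markers were above 3 counts, against 11 with control siRNA and 8 with DMSO. Both medians thus rest mostly on genes with low counts. What part these markers had in the values of the ERK feedback genes was not tested.

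**Figure D2:**
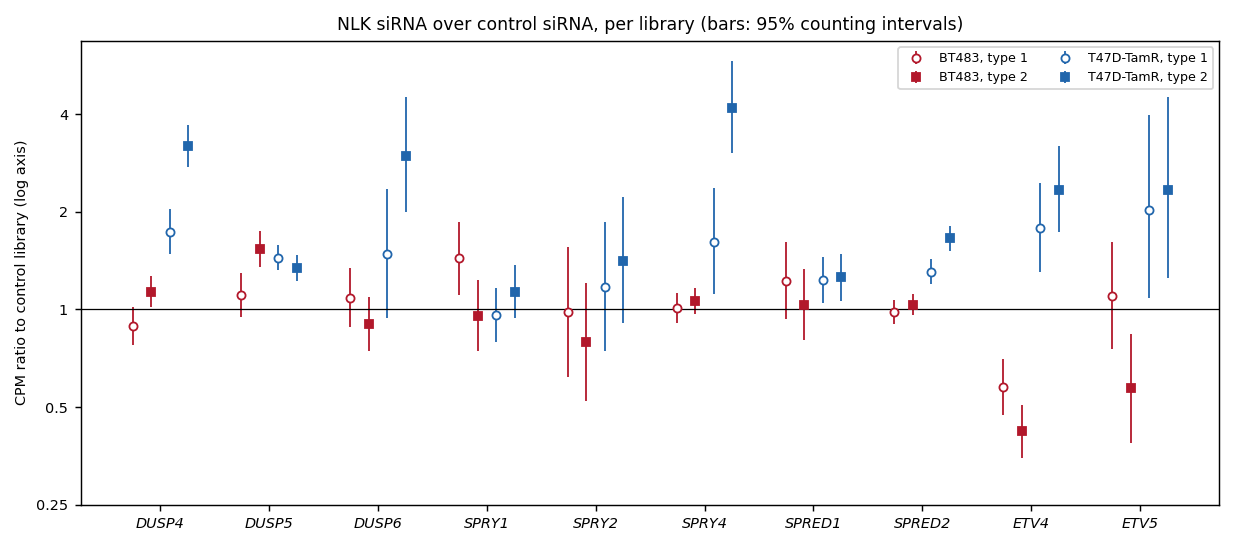
Ratio of CPM in each NLK siRNA library to the control siRNA library of its line, on a log axis, for type 1 (open circles) and type 2 (filled squares) in BT483 (red) and T47D-TamR (blue), with 95% counting intervals. In T47D-TamR the type 2 ratios reach 4.18 for SPRY4, 3.19 for DUSP4 and 2.97 for DUSP6, while in BT483 the ETV4 ratios are 0.578 and 0.421.

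The size of the difference in T47D-TamR varied with the siRNA. Type 2 was higher than type 1 for 9 of the 10 genes there, against 50.8% of genes, and for 4 of 10 in BT483, against 49.8%. In T47D-TamR the type 2 ratio to control was 3.19 (2.75 to 3.70) for DUSP4, against 1.74 (1.48 to 2.04) for type 1, and the intervals did not overlap. For DUSP6 it was 2.97 (2.00 to 4.51), against 1.48 (0.944 to 2.34). NLK itself was not lower with type 2 in this line, at 41.7% of control against 35.4% for type 1. Fitted over both lines, the difference of type 2 from type 1 passed for 0 of the 10 genes in edgeR, against 0.47% of all genes, and 0 of the 10 had an unadjusted p under 0.05, against 9.12%. The highest log2 differences were 0.73 (SE 0.37, adjusted p = 0.624) for SPRY4 and 0.66 (SE 0.33, adjusted p = 0.613) for DUSP4 in that edgeR fit. Because it gives both lines a common knockdown and a common siRNA difference, that fit cannot show whether the siRNAs differed in T47D-TamR alone.

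Promoters of SPRY4 and DUSP6 are shown because these genes had the highest coefficients in T47D-TamR knockdown and the widest gap between the lines. Sequences are from RefSeq on GRCh38.p14, 300 bases each around a RefSeq transcript start, in the sense of the gene (minus strand for both), and the table held an entry for 6 of the 10 genes. Capitals mark GGAA, the core that ETS factors bind, or its complement TTCC. The SPRY4 window is chr5:142324198-142324497 and the DUSP6 window is chr12:89352452-89352751. Both windows lie inside the span that GENCODE 29 gives the gene, which starts further upstream (at 142326455 for SPRY4 and 89353271 for DUSP6).
SPRY4 promoter: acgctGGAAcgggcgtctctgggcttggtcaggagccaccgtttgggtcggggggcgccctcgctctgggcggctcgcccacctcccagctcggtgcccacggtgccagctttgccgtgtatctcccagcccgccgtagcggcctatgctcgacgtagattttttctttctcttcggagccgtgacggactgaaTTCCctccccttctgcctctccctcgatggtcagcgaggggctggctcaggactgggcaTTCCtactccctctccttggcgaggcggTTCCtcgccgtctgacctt
DUSP6 promoter: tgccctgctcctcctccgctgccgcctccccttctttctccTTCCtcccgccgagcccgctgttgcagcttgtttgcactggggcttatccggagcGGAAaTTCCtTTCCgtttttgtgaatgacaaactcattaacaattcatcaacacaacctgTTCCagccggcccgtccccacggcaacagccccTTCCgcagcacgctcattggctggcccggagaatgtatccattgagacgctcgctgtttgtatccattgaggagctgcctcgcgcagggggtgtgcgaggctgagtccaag
SPRY4 held 4 matches and DUSP6 6, counting both strands. All 6 genes with an entry held at least 1, but so did 96.3% of the 27305 genes with an entry (95.5% of 35116 promoters), so the match sets these genes apart from nothing. The longer ETS letters CCGGAA were in SPRY1 and SPRY2 (20.1% of genes, 17.2% of promoters) and the AP-1 letters TGANTCA in SPRED2 (9.37% of genes, 7.71% of promoters). The cAMP-response letters TGACGT were in SPRED2 (9.64% of genes, 7.98% of promoters), and the E-box CACGTG in none of the 6 (8.77% of genes, 7.26% of promoters). A gene counts where any of its promoters holds the letters. CCGGAA contains the GGAA core. Some of these windows may start at a different transcript from the one used in these cells.

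In BT483, knockdown left most of the set near control and ETV4 below it. In edgeR's fit per line, 6 of 10 coefficients were positive, the median log2 fold change was 0.02 against 0.0046 over all genes, and none of the 10 passed, where 0.00416% of all genes did (1 gene, NLK). ETV4 had 9.68 CPM with type 1 and 7.06 CPM with type 2, against 16.8 CPM with control siRNA, ratios of 0.578 (0.471 to 0.705) and 0.421 (0.350 to 0.507). Its log2 fold change was -1.01 (SE 0.32, unadjusted p = 0.00622, adjusted p = 0.952, edgeR), and it was the only member with an unadjusted p under 0.05, against 3.39% of all genes. It was also the only one at least 1.5-fold lower with both siRNAs, against 2.56% of genes. Both ratios share the only untreated control library of BT483, so they are not independent. ETV5 had 3.74 CPM with type 1 and 1.94 CPM with type 2, against 3.40 CPM with control siRNA, on either side of it.

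The genes with the highest coefficients in T47D-TamR lay near control in BT483. SPRY4 had 41.4 CPM with type 1 and 43.5 CPM with type 2, against 41.0 CPM with control siRNA. DUSP4 had 26.1 CPM with type 1 and 33.3 CPM with type 2, against 29.3 CPM with control siRNA, on either side of it. DUSP6 had 11.7 and 9.73 CPM with types 1 and 2, against 10.8 CPM with control siRNA, also on either side. SPRED2 had 64.9 and 68.4 CPM with types 1 and 2, against 66.1 CPM with control siRNA. DUSP5 was higher with both, at 21.3 CPM with type 1 and 29.4 CPM with type 2, against 19.2 CPM with control siRNA (log2 fold change 0.41, SE 0.24, adjusted p = 1, edgeR). SPRY1 was at 8.78 CPM with type 1 and 5.85 CPM with type 2, against 6.12 CPM with control siRNA, and SPRY2 at 2.45 and 1.98 CPM, against 2.49 CPM. SPRED1 had 7.23 and 6.07 CPM with types 1 and 2, against 5.89 CPM with control siRNA.

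The difference in knockdown between lines, BT483 minus T47D-TamR, was tested directly. It was lowest for ETV4 at -2.09 (SE 0.45, unadjusted p = 0.00036, adjusted p = 1, edgeR), where ETV4 was below control in both BT483 knockdown libraries and above it in both of T47D-TamR. DUSP6 had -1.39 (SE 0.57), SPRY4 -1.32 (SE 0.65), DUSP4 -1.26 (SE 0.43) and ETV5 -1.24 (SE 0.71). No gene of the 24023 tested passed in edgeR, with 735 at an unadjusted p under 0.05 (3.06%), and none passed in DESeq2 or limma, with 352 and 946 at an unadjusted p under 0.05. Over both lines together, all 10 log2 fold changes were positive with a median of 0.29, against 0.02 over all genes, and 0 of 10 passed where 0.00416% of genes did (NLK alone, SE 0.21). DUSP5, at 0.49 (SE 0.21, unadjusted p = 0.0354), was the only member with an unadjusted p under 0.05, against 5.54% of genes, and ETV4, with opposite values in the lines, was at 0.01 (SE 0.40).

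Other genes of the pathway were taken from lists, which were chosen with earlier results of these data known. They gave no call on knockdown in T47D-TamR (edgeR, adjusted p under 0.05). Of 17 immediate early and other ERK-responsive genes, 13 were positive, where 53.7% of all genes were. Their median log2 fold change was 0.43, against 0.04 over all genes. Values ran from -2.97 to 0.93 with 4 negative, and the lowest was that of a gene averaging under 1 log2 CPM. At an unadjusted p under 0.05 there were 5, all higher (EPHA2, MAFF, JUNB, IER3 and CCND1), against 2.66% of all genes. EPHA2, a receptor tyrosine kinase, had 60.6 CPM with type 1 and 90.2 CPM with type 2, against 36.9 CPM with control siRNA (0.93, adjusted p = 0.857, edgeR). MAFF, a small MAF transcription factor, had 15.1 CPM with type 1 and 16.3 CPM with type 2, against 9.40 CPM with control siRNA (0.74, adjusted p = 0.857, edgeR). Of 9 further genes of the same families, 6 were positive with a median of 0.13. An unadjusted p under 0.05 was found for 2 of them, DUSP7 and DUSP8, both higher. DUSP8, a phosphatase of the stress-activated kinases, had 44.7 and 48.4 CPM with types 1 and 2, against 31.0 CPM with control siRNA. The 17 genes of the RAS-RAF-MEK-ERK cascade had a median of 0.01 with 9 positive and 0 at an unadjusted p under 0.05, the 6 upstream inhibitors a median of -0.04, and the 17 receptors and ligands a median of 0.24. RASA1, a GTPase activator that switches RAS off, was the only upstream inhibitor with an unadjusted p under 0.05 (-0.58, adjusted p = 0.857, edgeR). It had 21.2 CPM with type 1 and 26.7 CPM with type 2, against 38.3 CPM with control siRNA, and 22.2 CPM with tamoxifen in that arm. EGFR had 51.9 CPM with type 1 and 41.2 CPM with type 2, against 68.3 CPM with control siRNA, and was the only receptor or ligand with an unadjusted p under 0.05.

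In BT483 the highest median of these lists was 0.23, that of the 9 further family genes, and no gene of these 5 lists passed in edgeR. The only unadjusted p under 0.05 in them, where 3.39% of all genes had one, was that of IER2, an immediate early gene, with a log2 fold change of 0.48 (adjusted p = 1, edgeR). CCND1, the cyclin D1 gene, singled out after its values were seen, had 448 CPM with type 1 and 384 CPM with type 2, against 501 CPM with control siRNA in BT483, and 102 and 115 CPM with types 1 and 2, against 79.6 CPM, in T47D-TamR. These directions, lower in BT483 and higher in T47D-TamR, are those of ETV4, and neither passed the adjusted test.

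In BT483, ETV4 was lower in the tamoxifen library than in the control library. It had 4.52 CPM with tamoxifen, against 16.8 CPM with control siRNA alone, a ratio of 0.269 (0.216 to 0.334). The log2 fold change was -1.89 (SE 0.39, adjusted p = 0.0218, edgeR), and ETV4 was the only gene of the 10 to pass (1 gene), against 1.49% of all genes (1.4% lower). The call was lost with the 8 siRNA libraries alone (adjusted p = 0.110), with a length and GC offset (0.0521), in limma (0.0979), and without any 1 of 4 T47D-TamR libraries, namely control siRNA (0.0999), DMSO (0.0945) or either tamoxifen library (0.0936 in the siRNA arm, 0.113 in the DMSO arm), within a range of 0.000517 to 0.113 over all settings. In every setting ETV4 remained lower with tamoxifen. The comparison is of 1 library with 1. Both NLK siRNA ratios of ETV4 rest on the same control library, the only untreated control of BT483. The low ratios with tamoxifen and with both siRNAs are therefore not independent.

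Several further genes were low in the same BT483 tamoxifen library without passing. SPRY4 had 22.4 CPM with tamoxifen, against 41.0 CPM with control siRNA, a ratio of 0.546 (0.489 to 0.609), and its log2 fold change was -0.87 (SE 0.51, adjusted p = 0.789, edgeR). DUSP5 had 10.7 CPM with tamoxifen, against 19.2 CPM with control siRNA (ratio 0.560, 0.477 to 0.657), with a log2 fold change of -0.84 (SE 0.28, adjusted p = 0.266, edgeR). ETV5 had 1.57 CPM with tamoxifen, against 3.40 CPM with control siRNA (ratio 0.461, 0.303 to 0.696). SPRY1 went the other way, at 9.70 CPM with tamoxifen against 6.12 CPM with control siRNA, a ratio of 1.59 (1.26 to 2.00). The set thus had 4 of 10 genes at least 1.5-fold lower (background 11.7%) and 1 at least 1.5-fold higher (9.62%). DUSP4 (1.06), DUSP6 (1.08), SPRY2 (0.869), SPRED1 (1.27) and SPRED2 (0.890) had ratios inside that bound. Mitochondrially encoded genes took 11.5% of counts in this library, against 10.2% with control siRNA, and their part in these values was not tested.

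In T47D-TamR, no gene of the set passed with tamoxifen. None of the 10 passed in edgeR, against 0.221% of genes, none had an unadjusted p under 0.05, where 6.01% of genes did, and log2 fold changes ran from -0.35 (SPRY4) to 0.19 (DUSP5 and SPRED2). Intervals were wide for the low genes, such as -1.44 to 0.74 for SPRY4 and -1.23 to 0.87 for ETV5 (95%). ETV4 had 2.44 CPM with tamoxifen, against 2.62 CPM with control siRNA, and 3.22 CPM with tamoxifen, against 3.12 CPM with DMSO. The 95% interval of its log2 fold change ran from -0.65 to 0.60, and the -1.89 of BT483 lay outside it. With control siRNA, 0 of 10 genes were past 1.5-fold either way (15.8% of genes), and in the DMSO arm 1 was (8.58% of genes), SPRY4 at 1.15 CPM with tamoxifen against 1.88 CPM with DMSO. SPRY4 was not low with control siRNA and tamoxifen, at 1.90 CPM against 1.94 CPM. DUSP6 differed in direction between the arms, at 0.698 (0.400 to 1.20) with control siRNA and 1.32 (0.848 to 2.07) with DMSO.

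The difference in the tamoxifen effect between lines, BT483 minus T47D-TamR, was -1.86 (SE 0.48, adjusted p = 0.123, edgeR) for ETV4 and -1.03 (SE 0.34, adjusted p = 0.301, edgeR) for DUSP5. None of the 10 genes passed, against 0.691% of all genes, and these 2 had an unadjusted p under 0.05, against 8.7% of genes. For ETV4 it passed only with no filter on low counts (adjusted p = 0.0340), over a range of 0.0340 to 0.872.

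**Figure D3:**
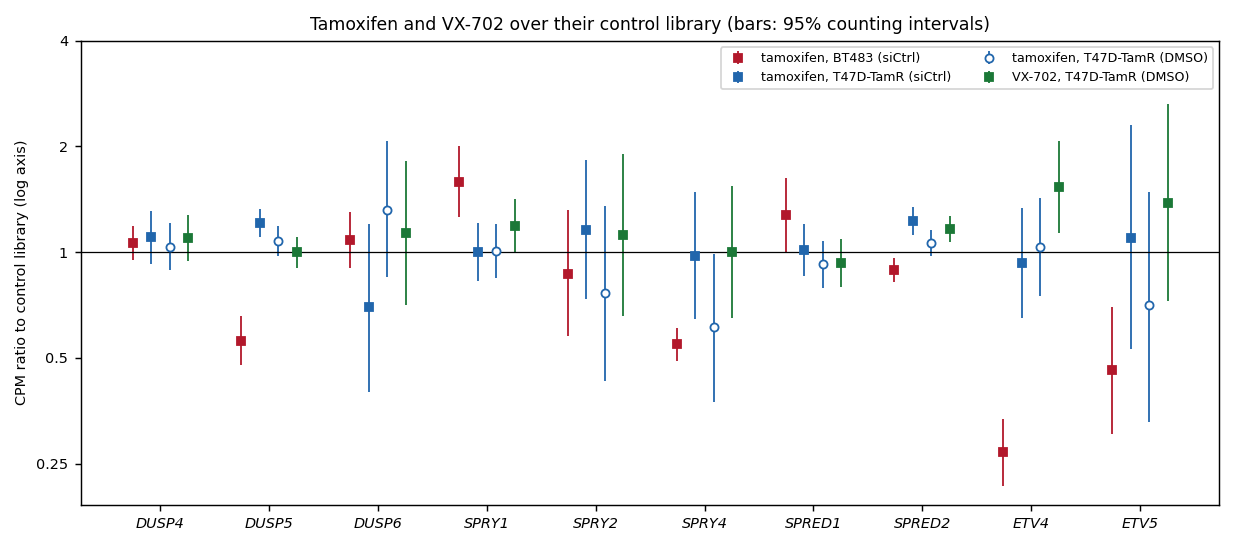
Ratio of CPM with tamoxifen or VX-702 to the control library of the same arm, on a log axis, with 95% counting intervals. In BT483 (red) ETV4 lies at 0.269, ETV5 at 0.461, SPRY4 at 0.546 and DUSP5 at 0.560, and the T47D-TamR tamoxifen ratios of ETV4 (blue) lie at 0.933 and 1.03.

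Among the other pathway genes in BT483, AREG, the EGF-receptor ligand amphiregulin, had 48.5 CPM with tamoxifen, against 251 CPM with control siRNA (log2 fold change -2.37, SE 0.22, adjusted p = 0.000115, edgeR). MYC had 19.6 CPM with tamoxifen, against 70.9 CPM (-1.85, SE 0.29, adjusted p = 0.00321, edgeR), and CCND1 237 CPM, against 501 CPM (-1.08, SE 0.21, adjusted p = 0.0173, edgeR). All of these are also known as estrogen-induced genes in breast cancer cells. These were the calls among 17 ERK-responsive genes (2 of 17, median -0.29) and 17 receptors and ligands (1 of 17, median -0.23), where 1.49% of all genes were called. The kinase cascade had 0 of 17 called with a median of 0.09, and the 9 family members and 6 upstream inhibitors had none. The call of CCND1 was lost with the 8 siRNA libraries alone (adjusted p = 0.118), in limma (0.152) and without any 1 of the 4 T47D-TamR control or tamoxifen libraries (0.0949 to 0.118), and that of MYC in limma (0.0760).

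For VX-702 there was 1 T47D-TamR library and 1 with DMSO, and no test was made. ETV4 had 4.77 CPM with VX-702, against 3.12 CPM with DMSO, a ratio of 1.53 (1.14 to 2.07). It was the only gene of the set past 1.5-fold, against 12.6% of genes averaging at least 0.5 CPM. SPRED2 had 46.7 CPM with VX-702, against 40.2 CPM with DMSO (ratio 1.16, 1.07 to 1.27). ETV5 had 1.05 CPM with VX-702, against 0.761 CPM with DMSO, and its interval included 1 (ratio 1.38, 0.728 to 2.64). The other 7 ratios ran from 0.931 (SPRED1) to 1.19 (SPRY1), and their intervals included 1. Of the genes with the highest knockdown coefficients in T47D-TamR, SPRY4 was at 1.88 CPM with either, DUSP4 at 14.5 CPM with VX-702 against 13.2 CPM with DMSO, and DUSP6 at 1.68 CPM against 1.48 CPM, while ETV4 was the one past 1.5-fold. The median log2 difference of the set was 0.16, against 0.06 over all genes.

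**Figure D4:**
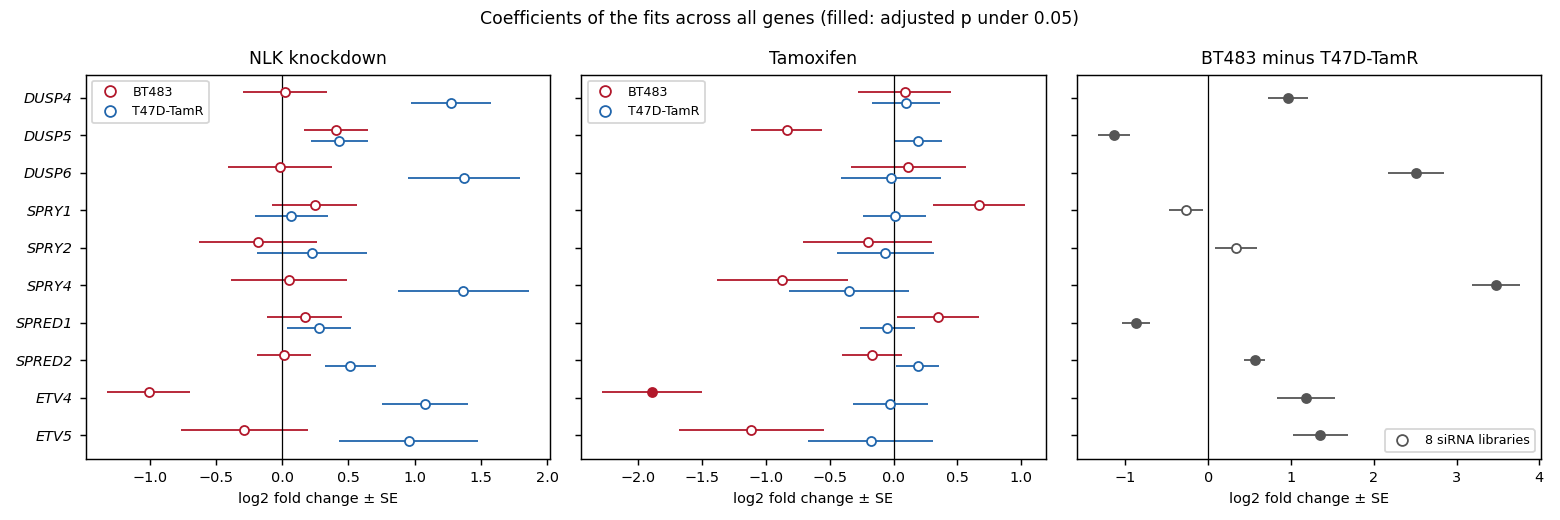
Log2 fold changes with standard errors of the 10 genes for NLK knockdown and tamoxifen in BT483 (red) and T47D-TamR (blue), and for BT483 minus T47D-TamR over 8 siRNA libraries (grey), with filled symbols at an adjusted p under 0.05 in edgeR. In knockdown no symbol is filled, in tamoxifen only ETV4 in BT483 is (-1.89), and in the line panel 8 of 10 are.

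The genes differed in how closely they followed each other over the 11 libraries. With the mean of its arm removed from each gene, the correlation with the mean of the other members was 0.904 for SPRY4, 0.890 for SPRED2, 0.853 for DUSP4, 0.798 for DUSP6, 0.792 for ETV5 and 0.648 for both ETV4 and SPRY2. It was 0.423 for SPRED1, 0.306 for DUSP5 and -0.04 for SPRY1. That mean was taken over the 8 members with an average log2 CPM of at least 1, without the gene itself. SPRY2 and ETV5 therefore did not enter it. The mean profile was highest with NLK siRNA type 2 in T47D-TamR, at 0.63 on the centred log2 CPM scale, and lowest with control siRNA in that line, at -0.38, followed by control siRNA with tamoxifen at -0.36. Each profile value is a deviation from the mean of its own arm, so high knockdown libraries lower the other values of that arm. These correlations describe 11 libraries that share arms and controls. Among 13567 other genes, those most like the mean profile of 8 members were USP31 (r = 0.959), PLK3 (0.958), NFKB1 (0.946), NAV2 (0.946) and YARS2 (0.938).

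The genes lie on separate chromosomes. Positions on GRCh38 (GENCODE 29) are chr8:29333064-29350668 for DUSP4, chr10:110497838-110511544 for DUSP5, chr12:89347232-89353271 for DUSP6, chr4:123396795-123403760 for SPRY1, chr13:80335976-80340951 for SPRY2, chr5:142310427-142326455 for SPRY4, chr15:38252326-38357249 for SPRED1, chr2:65310851-65432637 for SPRED2, chr17:43527844-43579620 for ETV4 and chr3:186046308-186110318 for ETV5. Exons of DUSP6 overlap the antisense gene AC024909.2 over 1875 bases, those of ETV4 overlap DHX8 on the opposite strand over 68, and those of ETV5 overlap DGKG on the same strand over 164. The strand setting of the counting is not stated, so reads in these stretches cannot be assigned with certainty. DUSP5 has a pair of processed pseudogenes elsewhere, DUSP5P1 and DUSP5P2, with which it may share reads.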

How the data were processed

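The deposited count files hold whole-number counts of 59087 gene symbols for each of 11 libraries, per the file headers. Libraries were stranded and made from polyadenylated RNA, per the labels. The submitters' processing notes name GRCh38, and which aligner and counter were used, with which strand setting, is not stated in the sources at hand. The authors also gave log2(TPM + 1) values of each library and a joint table of log2 TPM values, whose sorted columns differed by at most 0.108 and which was used only for limma and as an alternative for VX-702. 27 of its gene names did not match the count tables, and 0 columns were left unmapped.

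Counts were tested with edgeR 4.0.16 in R 4.3.3 (TMM, filterByExpr, robust quasi-likelihood, 2-sided, Benjamini-Hochberg over all genes tested, threshold 0.05), in 9 comparisons. The additive fit, the fit per line and the fit of siRNA type used 11 libraries, with arms as blocks (24023 genes, residual df 5, 3 and 4). The line fit used the 8 siRNA libraries (21990 genes, residual df 3). Biological coefficients of variation were 0.162 to 0.179. No 2 libraries held identical counts. VX-702 and control siRNA were set against DMSO without a test. Alternatives were other scaling, filters, fewer libraries, DESeq2 1.42.0, limma 3.58.1 and each library left out. A length and GC offset (values for 97.0% of genes tested) was added after seeing the data. Fits were run on simulated data with known answers, drawn as independent libraries with the same spread for every gene. Such data cannot show how well the tests hold for the scatter of these libraries. All 10 genes are named, and of the pathway lists those called or among the 4 with the largest coefficients at an average log2 CPM of at least 1. The genes, lists and tests were chosen with earlier results of these data known.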

Additional observations from a re-analysis of the deposited data

Results flagged for a closer look

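Differences in the tamoxifen effect between lines, BT483 minus T47D-TamR, passed edgeR's quasi-likelihood test for 3 genes of the pathway lists, where 0.691% of all genes passed. For AREG it was -2.12 on the log2 scale (adjusted p = 0.00137, edgeR), with 48.5 CPM in BT483 with tamoxifen against 251 CPM with control siRNA, and, in T47D-TamR, 66.5 CPM with tamoxifen against 75.1 CPM with control siRNA and 60.8 CPM with tamoxifen against 75.8 CPM with DMSO. For MYC it was -2.02 (adjusted p = 0.0134, edgeR), with 19.6 CPM in BT483 with tamoxifen against 70.9 CPM with control siRNA, and, in T47D-TamR, 10.7 CPM with tamoxifen against 7.81 CPM with control siRNA but 7.74 CPM with tamoxifen against 8.45 CPM with DMSO, so the arms had opposite directions. For CCND1 it was -1.29 (adjusted p = 0.0321, edgeR), with 237 CPM in BT483 with tamoxifen against 501 CPM, and, in T47D-TamR, 94.8 CPM with tamoxifen against 79.6 CPM with control siRNA and 72.6 CPM with tamoxifen against 64.5 CPM with DMSO.

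Each of these calls was lost with the 8 siRNA libraries alone (edgeR adjusted p = 0.0892 for AREG, 0.149 for MYC and 0.387 for CCND1), in limma (0.131, 0.198 and 0.287), and without any 1 of the 4 T47D-TamR control or tamoxifen libraries. Without those libraries the edgeR adjusted p ran from 0.0564 to 0.109 for AREG, from 0.106 to 0.405 for MYC and from 0.318 to 0.624 for CCND1. The CCND1 call was also lost at a minimum of 10 counts in every library (0.0605) and with the length and GC offset (0.0581). The same directions were kept in every setting.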

How the results depend on the processing

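Of the 839 values of named genes under other settings, 771 were counted as unchanged and 0 as reversed. A change of sign counted as reversed only where a value was called. DUSP5 with VX-702, which was not tested, took either sign (-0.0472 to 0.00667). The tested genes in this tally all had an unadjusted p under 0.05 in edgeR's main fit, so a stable direction was favoured by their choice. Of 68 further values of the 10 genes, none called in any setting, 33 changed sign in some setting. In DESeq2 and limma none of the 10 genes passed on knockdown or tamoxifen, except ETV4 in BT483 with tamoxifen in DESeq2 (adjusted p = 0.00871), and DESeq2 gave some of them no adjusted p. EPHA2 on knockdown in T47D-TamR passed only with no filter (adjusted p = 0.0203, range 0.0203 to 1). The knockdown difference of ETV4 between lines passed only with no filter (0.0351, range 0.0351 to 1).

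Counts of genes called moved more than those values. With no filter on low counts there were 249 on knockdown over both lines, 163 in BT483, 108 in T47D-TamR and 21 for their difference, 670 on tamoxifen in BT483, 354 in T47D-TamR and 502 for their difference, and 339 between siRNAs, against 1, 1, 1, 0, 357, 53, 166 and 113 in that order. At a minimum of 10 counts in every library the 3 knockdown counts and tamoxifen in T47D-TamR had 0, and the siRNAs 50. With the length and GC offset the same 4 had 0 and the siRNAs 255. With the 8 siRNA libraries alone, knockdown over both lines and in BT483, tamoxifen in T47D-TamR and its difference had 0, tamoxifen in BT483 had 184 and the siRNAs 37. DESeq2 gave 10 on knockdown over both lines, 7 in T47D-TamR, 162 on tamoxifen in T47D-TamR, 330 for its difference and 345 between siRNAs. In limma the 3 knockdown counts, tamoxifen in T47D-TamR and the siRNAs had 0, tamoxifen in BT483 had 9 and its difference 1. Genes past 1.5-fold with VX-702 (mean of at least 5 CPM) were 623, and 336 on the deposited log2 TPM values. Leaving out 1 library at a time gave 0 to 2 on knockdown over both lines, 0 to 149 in BT483, 0 to 23 in T47D-TamR, 0 to 5 for their difference, 190 to 480 on tamoxifen in BT483, 0 to 100 in T47D-TamR, 0 to 271 for its difference, 0 to 406 between siRNAs and 14535 to 15363 between lines (15543 with all). The cause was not tested, apart from the fewer libraries or genes that some settings hold.

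No paired analysis was possible because each group held 1 library, and a replicate number only names it. The only blocks were treatment in the line fit and the arm in the others. Knockdown in BT483 could not be fitted without its control library, nor tamoxifen in BT483 without its control or its tamoxifen library, and likewise the differences between lines. With 1 library per group, the widest 95% intervals on knockdown in T47D-TamR were those of SPRY4 (0.23 to 2.51) and ETV5 (-0.16 to 2.07).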
